A study of Mus musculus with 5 samples.

Results

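The bone sub-line of NT2.5 mouse mammary tumour cells was examined at its 3rd passage, for genes whose signal there lay apart from that in every other sample of the series. NT2.5 cells come from a mammary tumour of mice that carry the neu oncogene, and the sub-lines are labelled by the organ they prefer as a site of metastasis. Each of the 5 samples was measured on 1 Affymetrix mouse expression array of 1 colour. The samples were parental NT2.5 cells (labelled wild type, with lung, liver and bone all named as organs they prefer), the bone sub-line at passage 3 and passage 6, and the liver sub-line at passage 1 and passage 3. The labels name no other treatment or genotype for any sample, and they do not say whether a sub-line passed through 1 animal or several. A gene was taken where its signal at bone passage 3 lay outside the range of the 4 other arrays by at least 1 on the log2(signal + 16) scale, a 2-fold distance on that scale. This distance to the nearest of the 4 other arrays is called the gap. Of 12609 genes tested, 54 met the rule, 50 of them above (0.397%) and 4 below (0.0317%) all other arrays, or 0.428% in all. Since the signals at bone passage 3 chose these genes, and each group is 1 array with no replicate, their values are a description with no test and no p-value.

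Cells that metastasize to bone meet a marrow niche of osteoblasts, osteoclasts, blood-forming cells and mineralized matrix. Repeated passage through an organ is a common way to select tumour cells that settle there. A sub-line at an early passage can hold a mixture of cells, and expression seen there may be kept or lost at later passages. In bulk RNA a lower signal in fewer cells and a lower signal per cell cannot be told apart.

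The arrays were alike in overall level. Their median signals lay between 21.9 and 26.4, the lowest being bone passage 6 and the highest bone passage 3. Between 5' and 3' control probe sets the signal ratio ranged from 0.842 to 0.927 for actin, with bone passage 3 lowest, and from 1.24 to 1.33 for Gapdh. The file gives no detection calls, so which dim signals stood above background is unknown. Of 9 tested epithelial tumour cell markers 0 were outside the range by the rule, against 0.428% of all genes tested. The keratin gene Krt8 had signals of 4150 in parental cells, 3874 and 4829 at bone passages 3 and 6, and 3406 and 3460 at liver passages 1 and 3. Epcam, the epithelial adhesion molecule, had 4015, 4262, 4384, 3980 and 3761 in the same order. Krt19, a further keratin of simple epithelia on that list, had at most 3.3 on all 5 arrays. Erbb2, the mouse counterpart of neu, had 312.4, 342.1, 319.5, 211.8 and 279.9, so bone passage 3 was slightly above the others.

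Higher signals made up 92.6% of the 54 genes. Under the same rule the parental array had 43 higher (0.341%) and 39 lower (0.309%), and liver passage 1 had 32 (0.254%) and 34 (0.27%). Bone passage 6 had the opposite lean, with 11 higher (0.0872%) and 50 lower (0.397%). Liver passage 3 leaned the same way as bone passage 3 with fewer genes, 19 (0.151%) and 3 (0.0238%). With each array centred on its median these counts were 16 and 34 at bone passage 6, and 18 and 4 at liver passage 3. In either direction 82 genes (0.65%) stood apart in parental cells, 61 (0.484%) at bone passage 6, 66 (0.523%) at liver passage 1 and 22 (0.174%) at liver passage 3, so the total of 54 at bone passage 3 was not the highest. The split at bone passage 3 moved with the scale: it was 37 higher and 10 lower (78.7% higher) when each array was centred on its median, which raised bone passage 6 by 0.11 and lowered bone passage 3 by 0.05. With a pseudocount of 1 in place of 16 it was 77 higher and 57 lower (57.5% higher), and 50 of those 57 had a signal under 16 at bone passage 3.

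**Figure D1:**
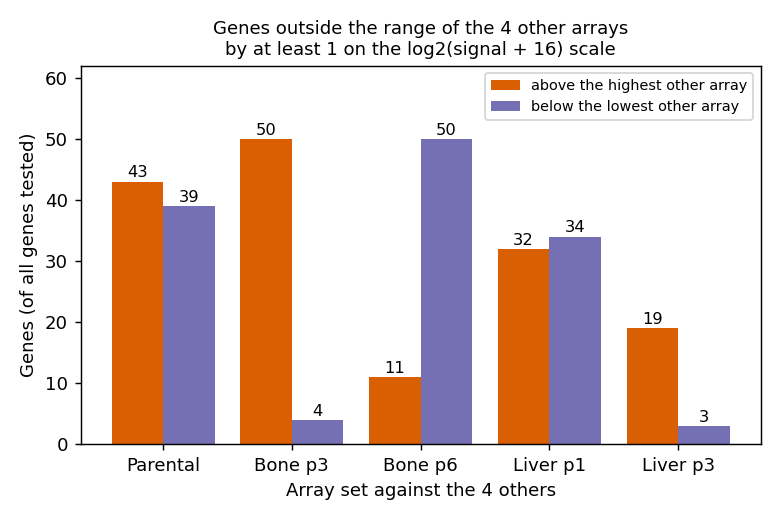
Bars give the number of genes, of 12609 tested, that lie above the highest (orange) or below the lowest (purple) of the 4 other arrays by at least 1 on the log2(signal + 16) scale, for each array in turn (p, passage). Bone passage 3 has 50 higher and 4 lower genes, and bone passage 6 has 11 higher and 50 lower.

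The 3 largest gaps, each of at least 2 log2 units, belonged to Them5, Cnmd and Mgll. Them5 encodes a mitochondrial thioesterase that cleaves acyl-CoA. Its signal was 1077 at bone passage 3, against 69.1 in parental cells, 78.6 at bone passage 6, 16 at liver passage 1 and 3.9 at liver passage 3. Bone passage 3 was 11.6-fold above bone passage 6, the nearest array, on the log2(signal + 16) scale (gap 3.53). The other 4 arrays thus differed among themselves too, with both liver arrays lowest. A second Them5 probe set gave 621.5 at bone passage 3 and at most 48.9 elsewhere (gap 3.30), and the last, a dim one, gave 29.4 against at most 16.2 (gap 0.50).

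Cnmd encodes chondromodulin, a cartilage glycoprotein that inhibits the growth of blood vessels. Its signal was 726 at bone passage 3, 109.6 in parental cells, 77.1 at bone passage 6, and 107.4 and 73.2 at liver passages 1 and 3 (gap 2.56, or 5.91-fold). The 4 other arrays lay close together, and bone passage 6 was slightly below parental cells. Mgll encodes the lipase that splits monoacylglycerols, the endocannabinoid arachidonoylglycerol among them. Its signal was 539 at bone passage 3, 50 in parental cells, 104.6 at bone passage 6, and 48.4 and 55.1 at liver passages 1 and 3 (gap 2.20, or 4.61-fold). Bone passage 6 had a signal above that of the 3 arrays outside the bone lineage. Of 3 further Mgll probe sets 2 met the rule as well, with gaps of 2.09 and 2.23, and the last was at or under 5 on all arrays.

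The promoter sequences of these 3 genes are shown because their gaps exceed all others. Each covers the 250 bases before the annotated start, 5' to 3', from RefSeq on build GRCm38.p6, and capitals mark any of 8 short motifs searched on both strands. Only the one for Mgll holds such a match, an E-box (CACGTG) that begins 44 bases before the start. A second annotated Mgll start lies nearby and its sequence is not shown.
Them5, chr3:94341849-94342098, plus strand: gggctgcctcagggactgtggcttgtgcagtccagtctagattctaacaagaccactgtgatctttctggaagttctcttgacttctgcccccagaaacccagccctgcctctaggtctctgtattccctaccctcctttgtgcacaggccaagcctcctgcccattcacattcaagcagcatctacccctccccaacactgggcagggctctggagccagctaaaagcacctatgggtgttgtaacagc
Cnmd, chr14:79662184-79662433, minus strand: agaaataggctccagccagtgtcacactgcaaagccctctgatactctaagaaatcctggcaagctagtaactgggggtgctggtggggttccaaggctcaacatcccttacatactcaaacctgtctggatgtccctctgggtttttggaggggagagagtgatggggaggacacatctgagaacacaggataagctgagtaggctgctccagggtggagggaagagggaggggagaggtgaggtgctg
Mgll, chr6:88724162-88724411, plus strand: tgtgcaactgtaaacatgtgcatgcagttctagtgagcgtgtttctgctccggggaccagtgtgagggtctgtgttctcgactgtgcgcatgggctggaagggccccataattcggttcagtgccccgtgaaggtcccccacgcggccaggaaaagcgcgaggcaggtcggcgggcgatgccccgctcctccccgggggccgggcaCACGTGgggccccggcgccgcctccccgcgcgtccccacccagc

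**Figure D2:**
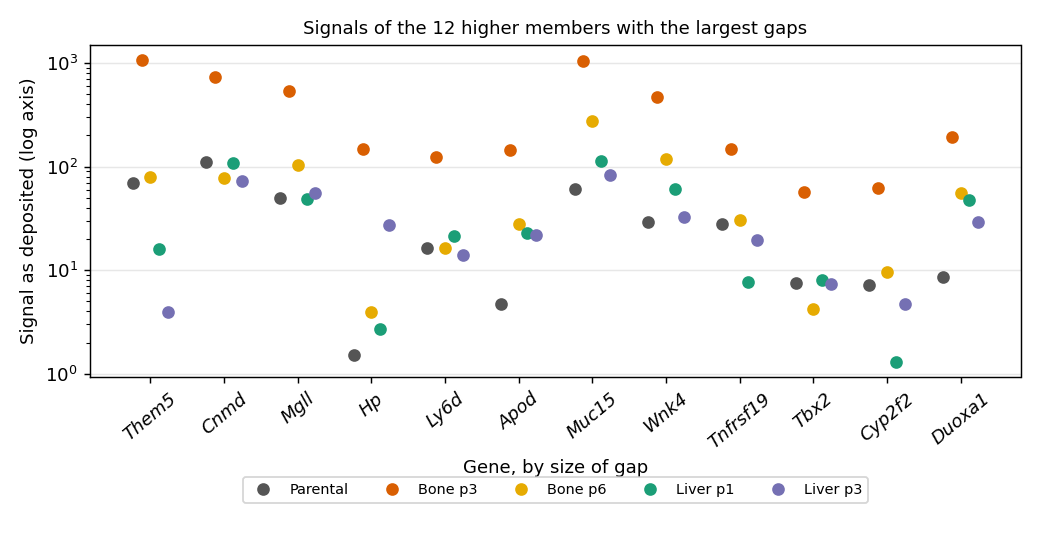
Each dot is the deposited signal on 1 array (log axis) for the 12 genes with the largest gaps above all other arrays, leaving out genes with clone or predicted names. The bone passage 3 dot is the highest for each gene, from 1077 for Them5 to 57.3 for Tbx2.

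Further genes of lipid and sterol metabolism were among the 50. Apod, a lipocalin that carries small hydrophobic molecules, had 143.5 at bone passage 3 and 4.7, 27.7, 23 and 21.9 in parental cells, bone passage 6 and liver passages 1 and 3 (gap 1.87). Parental cells were the lowest. A dim second Apod probe set gave 17.4 at bone passage 3 and 18.1 in parental cells. Idi2, an isopentenyl diphosphate isomerase of sterol synthesis, had 26.0 at bone passage 3 and at most 0.7 elsewhere (gap 1.33), close to the median of all signals, 25.1. Nr0b2, a nuclear receptor without a DNA-binding domain that represses bile acid synthesis genes in liver, had 37.2 and at most 7.4 elsewhere (gap 1.18). Osbp2, an oxysterol-binding protein, had 26.2 and at most 4.4 (gap 1.05), while its second probe set had a gap of only 0.19. These 3 dim genes had only low signals on all other arrays. Of 20 tested cholesterol synthesis genes 0 met the rule, against 0.428% of all genes tested. Of the 5 arrays bone passage 3 was highest for 6 and lowest for 2, against 19.9% and 16.1% of all genes tested. The cholesterol list had a median of 0.09. This and later list medians are of the log2 signal at bone passage 3 minus the median of the 4 others, which was 0.01 over all genes tested. Of 19 genes of fatty acid synthesis and lipid storage 0 met it either (median 0.11). Among other acylglycerol lipases and thioesterases, listed after Mgll and Them5 were seen, the triglyceride lipase Pnpla2 had 316 at bone passage 3 and 180 to 254 elsewhere, and Them4 had 126.7 against 48.9 to 121.6.

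Some members encode proteins known from cartilage or matrix. Matn4, a matrilin that links matrix fibrils, had 101.2 at bone passage 3, 7.3 in parental cells, 32.6 at bone passage 6 and 8.4 and 14 at the liver passages (gap 1.27). Bone passage 6 was nearest. Matn2, its family member, had 292.6 at bone passage 3 and 126.2, 42.4, 119.0 and 136.9 in the order used above (gap 1.01). Here bone passage 6 was the lowest array, 5.28-fold below bone passage 3. A second Matn2 probe set had a gap of 0.78, and the mean of both did not meet the rule. Adamts3, which trims procollagen, had 92.9 at bone passage 3, 37.2 in parental cells and at most 17.7 on the other arrays (gap 1.03). A second Adamts3 probe set had a gap of only 0.16. Sparcl1, a matricellular glycoprotein, had 285.4 at bone passage 3, 2.4 in parental cells, 118.9 at bone passage 6 and 99.3 and 67.4 at the liver passages (gap 1.16), so that all sub-line arrays exceeded parental cells.

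Other cartilage genes did not meet the rule. On a list of 20 cartilage genes drawn up after these members were seen, 12 could be tested, and the 4 that met the rule were Cnmd, Matn2, Matn4 and Adamts3. Against 0.428% of all genes this share says nothing of cartilage genes at large, since the list was drawn up around them. Col9a1, a cartilage collagen chain, had 2945 at bone passage 3 and 970 to 1854 elsewhere (gap 0.66). Col2a1, the defining cartilage collagen, had 7.8 at bone passage 3 and 23.1 in parental cells, and Acan, the cartilage proteoglycan, had 21.2 and 25. Sox9, the transcription factor of cartilage cells, had 430.6 at bone passage 3 and 326 to 397 elsewhere. Of 30 tested collagen and matrix genes 0 met the rule (median -0.05), as did 0 of 8 tested bone matrix and mineralization genes (median 0.31).

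Secreted factors and inhibitors followed. Hp encodes haptoglobin, which binds free haemoglobin, and its signal was 148.5 at bone passage 3, 27.4 at liver passage 3 and at most 3.9 on the other arrays (gap 1.92). Hgf, the ligand of the receptor Met, had 46.6 at bone passage 3 and at most 14.6 elsewhere (gap 1.03). A second Hgf probe set had 13 there, and Met itself had 844 at bone passage 3 and 729 to 1267 elsewhere. Wfdc3, of the whey acidic protein family of protease inhibitors, had 117.5 and at most 36.0 elsewhere (gap 1.36), although its second probe set had a gap of only 0.11. Car6, a secreted carbonic anhydrase, had 72.3 and at most 25.7 elsewhere (gap 1.08). Hhipl2, related to a hedgehog-binding protein, had 245.3 at bone passage 3 and 66.1, 98.2, 48.5 and 4.5 on the other arrays in order (gap 1.19). Hs3st1, which sulfates heparan sulfate chains, had 247.9 against 112.8 at liver passage 3 and 52.9 to 76.1 elsewhere (gap 1.03).

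Cell-surface and epithelial genes came next. Muc15, a membrane mucin, had 1039 at bone passage 3, 60.2 in parental cells, 275.2 at bone passage 6 and 113.0 and 83.6 at the liver passages (gap 1.86). Bone passage 6 was 1.93 log2 units above parental cells, so its signal was lower at passage 6 than at passage 3 and still above the parental level. Wnk4, a kinase that regulates salt cotransporters, had 465.9, 29.0, 118.9, 60.5 and 32.8 at bone passage 3, in parental cells, at bone passage 6 and at liver passages 1 and 3 (gap 1.84). Slc12a2, a sodium, potassium and chloride cotransporter that WNK kinases activate through others, had 2671 and 2990 at bone passages 3 and 6 and 757 to 1075 on the other arrays, so it was high at both bone passages.

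Duoxa1, the maturation factor of the dual oxidase Duox1, had 191.6 at bone passage 3, 8.6 in parental cells, 55.3 at bone passage 6 and 47.7 and 29.0 at the liver passages (gap 1.54). Duox1 itself had 52.4 at bone passage 3 and 29.1 to 37.0 elsewhere (gap 0.37). Ly6d, a lipid-anchored surface protein of epithelia and lymphoid precursors, had 124.0 at bone passage 3 and 13.9 to 21.3 elsewhere (gap 1.91), with the 4 other arrays within 0.32 log2 units of each other. Krt23, a keratin of simple epithelia, had 222.8 at bone passage 3, 76.8 at bone passage 6 and 31.6 to 51.6 on the rest (gap 1.36). Of 19 tested keratins and cornified envelope genes only Krt23 met the rule, against 0.428% of all genes tested. St8sia6, a sialyltransferase, had 1145 at bone passage 3, 457.0 in parental cells, 385.3 at bone passage 6 and 200.8 and 95.6 at the liver passages (gap 1.29). Both of its other probe sets met the rule too, with gaps of 1.24 and 1.71.

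The rest of this group had smaller gaps. Trpm3, a cation channel, had 372.1 at bone passage 3, against 165.3 at liver passage 1 and 161.4 at bone passage 6, but its 5 other probe sets had gaps of at most 0.20. Flvcr2, a membrane transporter, had 199.9 at bone passage 3 and at most 75.1 elsewhere (gap 1.24). Cldn22, a claudin, had 99.3 and at most 40.1 (gap 1.04), and Ceacam2, an adhesion molecule, had 31.7 and at most 7.2 (gap 1.04). Kank4, an ankyrin-repeat protein linked to actin, had 1097 and 502.0 at bone passages 3 and 6 but 24.6 to 59.3 on the other arrays (gap 1.10). It was a gene of both bone passages, higher at passage 3 by 2.15-fold.

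Transcription factors and signalling genes were also present. Tnfrsf19, a receptor of the tumour necrosis factor family also known as Troy, had 147.8 at bone passage 3 and 27.7, 30.6, 7.6 and 19.4 on the other arrays in order (gap 1.81). Its other probe sets had gaps of 0.96 and 0.62. Tbx2, a T-box repressor, had 57.3 at bone passage 3 and 4.2 to 8.0 elsewhere (gap 1.61). Mxd1 encodes a partner of MAX that opposes MYC at E-box sequences, and had 401.0 at bone passage 3, 130.2 in parental cells, 135.8 at bone passage 6 and 120.5 and 118.0 at the liver passages (gap 1.46). The 4 other Mxd1 values were nearly equal, and all 3 of its probe sets met the rule. Of 12 tested genes of the MYC, MAX and MXD network, listed after Mxd1 was seen, the other 11 had gaps of at most 0.16. Myc had 820 at bone passage 3 and 539 to 1212 elsewhere.

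Hey1, a repressor switched on by Notch receptors, had 852.0 at bone passage 3, 327.1 in parental cells, 340.1 at bone passage 6 and 198.0 and 156.8 at the liver passages (gap 1.29). The remaining Notch genes did not share this pattern. Of 17 tested, 1 met the rule, against 0.428% of all genes tested. At bone passage 3, 4 were highest and 6 lowest of the 5 arrays, against 19.9% and 16.1% of all genes tested. The Notch median was 0.01. The target Hes1 had 691.2 at bone passage 3 and 686.8 in parental cells, and the ligand Jag1 had 361.6 at bone passage 3 and 424.9 to 1453 elsewhere.

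Egr2, an immediate early zinc finger factor, had 1021 at bone passage 3, 468.7 in parental cells, 223.0 at bone passage 6 and 278.3 and 66.8 at the liver passages (gap 1.10). Its second probe set met the rule as well (gap 1.00). Among 27 tested immediate early genes 1 met the rule, against 0.428% of all genes tested. At bone passage 3, 13 were highest and 3 lowest of the 5 arrays, against 19.9% and 16.1% of all genes tested. Their median was 0.28. Zfp36, which destabilizes cytokine mRNA, had 493.1 at bone passage 3 and 209.9 to 278.0 elsewhere (gap 0.79). The phosphatase gene Dusp1 had 337.1 against 156.1 to 200.8 (gap 0.70), and the MAPK inhibitor Spry4 had 132.1 against 47.8 to 75.9 (gap 0.69). The 3 lowest were Fosl1 (32.4 against 38.3 to 58.4), Fosl2 (327.9 against 357.5 to 625) and Klf6 (429.2 against 441 to 640.3). Among the further genes highest there, Nr4a1 had 923.9 against 260.3 to 628 (gap 0.55). Genes neither highest nor lowest lay inside the range of the other arrays. Of these, Fos had 5114 at bone passage 3 and 3915 to 5345 elsewhere, and Egr1 had 3172 against 1731 to 4580.

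Smaller gaps in signalling genes were those of Rgs2, a brake on G protein signalling, with 184.0 at bone passage 3 and at most 73.8 elsewhere (gap 1.16), and Irs2, an adaptor of the insulin receptor, with 73.5 and at most 25 (gap 1.13). Of 3 further Rgs2 probe sets 1 met the rule (gap 1.11), and the others had gaps of 0.78 and 0. The mean of the Rgs2 probe sets did not meet it. Zfpm2, a cofactor of GATA proteins, had 28.2 and at most 3.6 elsewhere (gap 1.17). A second Zfpm2 probe set was at or under 4.1 on all arrays and lowest at bone passage 3 (0.3). Apbb1ip, an effector of the GTPase Rap1, had 63.8 and at most 20.6 elsewhere (gap 1.12). Its second probe set, a dim one, had 4.9 at bone passage 3, inside the range of 1.8 to 13.6 elsewhere. Nrep, a neuronal regeneration-related protein, had 162.3 at bone passage 3, 60.2 in parental cells and at most 26.4 on the others (gap 1.23), and its second probe set had a gap of 0.68. S100b, a calcium-binding protein of glia and cartilage, had 67.9 and at most 19.1 elsewhere (gap 1.26). A second S100b probe set had a gap of 0.88. The related S100a1 stayed just outside the rule by its brightest probe set, with 1333 at bone passage 3 and 430.0 to 736.0 elsewhere (gap 0.84), whereas a dimmer one met it (gap 1.04).

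Enzymes of energy and xenobiotic metabolism included Aldoc, the aldolase of brain, with 1353 at bone passage 3, 348.8 in parental cells, 525.8 at bone passage 6 and 493.3 and 539.5 at the liver passages (gap 1.30). Of the 24 tested hypoxia and glycolysis genes only Aldoc met the rule, against 0.428% of all genes tested, and their median was 0.05. Ckmt1, the mitochondrial creatine kinase of epithelia, had 221.3 at bone passage 3 and at most 94.2 elsewhere (gap 1.11), with a gap of 1.73 for its other probe set. Cyp2f2, a cytochrome P450 known from the airway, had 61.5 at bone passage 3 and at most 9.7 elsewhere (gap 1.59), and Cyp2b19, one known from epidermis, had 56.4 and at most 18.2 (gap 1.08). Of 23 tested genes on the xenobiotic metabolism list 1 met the rule, Cyp2f2, against 0.428% of all genes tested. Cyp2b19 is not on that list.

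Several members bear names of immune or germ cells. Ighm, the heavy chain of immunoglobulin M, had 332.3 at bone passage 3 and 78.8 to 154.5 elsewhere (gap 1.03), but of its 10 other probe sets 2 were highest there, with gaps of at most 0.19, and 1 was lowest (gap -0.34). The B cell markers Cd79a and Ms4a1 had 13.9 and 18.4 at bone passage 3 and no more than 22.6 on any array. Klrb1a, a receptor of natural killer cells, had 118.2 at bone passage 3, 42.4 in parental cells and at most 13.1 elsewhere (gap 1.2). Izumo1r, the sperm receptor of the egg and a folate receptor relative, had 77.8 at bone passage 3 and 2.8 to 21.3 elsewhere (gap 1.33). Catsperg1, a subunit of a sperm calcium channel, had 33.2 and at most 8.1 elsewhere (gap 1.03). A second Catsperg1 probe set was at or under 4.3 on all arrays and lowest at bone passage 3 (0.8). The last 3 higher members have clone or predicted names only, with gaps of 1.95 for Gm13889, 1.16 for 4931406C07Rik and 1.05 for 1500002F19Rik. Their second probe sets had gaps of 0.07, 1.15 and 0 in that order.

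The 4 genes below all other arrays were dim at bone passage 3, at 0.6 to 9.3. Pak3, a kinase that acts on actin downstream of Rac, had 0.6 at bone passage 3, 27.7 in parental cells, 19.4 at bone passage 6 and 65.9 and 130.8 at the liver passages (gap -1.09). All 3 of its other probe sets were lowest at bone passage 3 too, without meeting the rule. Ntng1, an axon guidance protein, had 9.3 at bone passage 3 and 37.5 to 53.3 elsewhere (gap -1.08), while its other 3 probe sets were not lowest there. Tbxa2r, the thromboxane receptor, had 9.0 against 34.3 to 80.0 (gap -1.01), and 4833427F10Rik had 5.3 against 36.3 to 51.6 (gap -1.30).

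**Figure D3:**
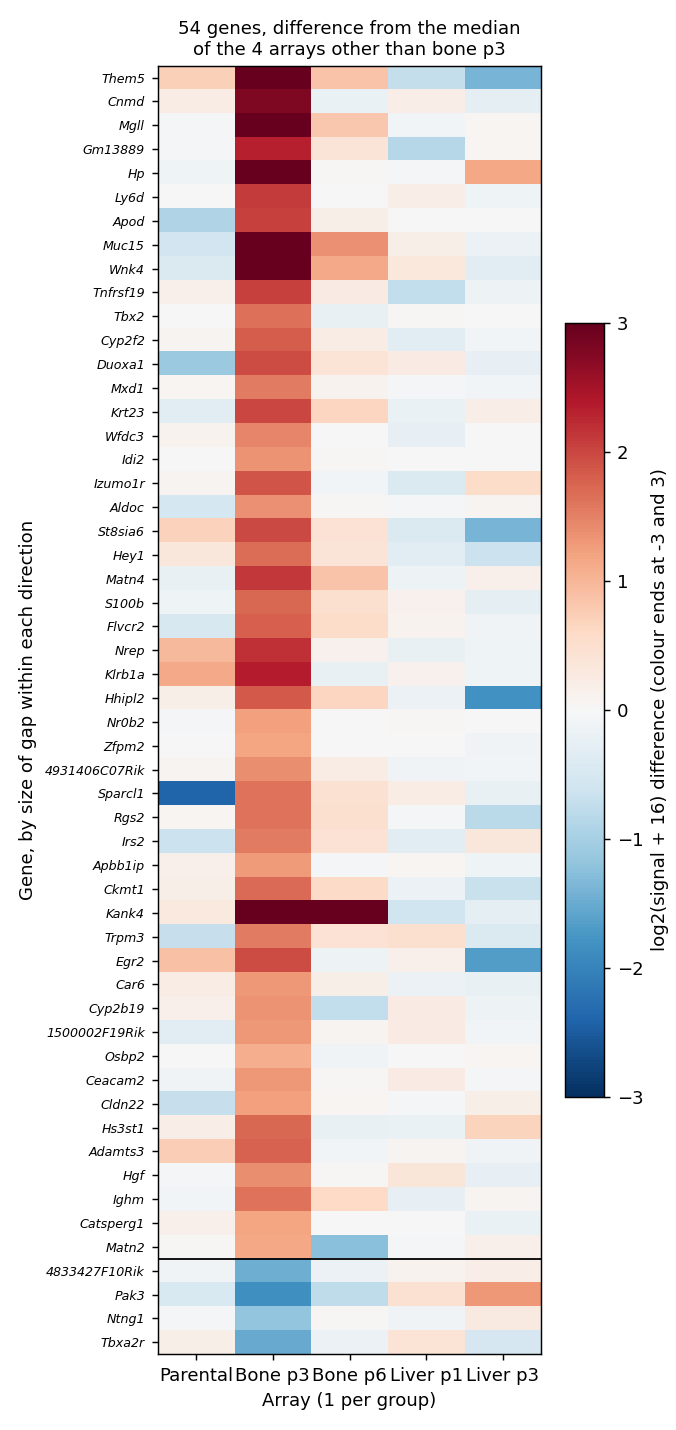
Rows are the 54 genes and columns the arrays (p, passage). Colour gives the log2(signal + 16) value minus the median of the 4 arrays other than bone passage 3. The black line parts the 50 higher from the 4 lower genes. The colour scale is clipped. At bone passage 3, Them5 (4.39), Kank4 (4.18), Muc15 (3.22), Hp (3.09) and Mgll (3.02) thus have the darkest shade it allows. Bone passage 3 is the extreme column by the rule, and for Kank4 bone passage 6 is dark too.

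The signal at passage 6 differed from gene to gene. Among the 50 higher genes, bone passage 3 exceeded bone passage 6 by 2.04-fold to 11.6-fold, with a median of 2.57-fold. Bone passage 6 was the nearest array for 24 of them, the parental array for 11, liver passage 1 for 8 and liver passage 3 for 7. For those 24 genes (48.0%) bone passage 6 still stood above parental cells and both liver arrays, for 20 it lay within their range and for 6 it lay below. Over all 2515 genes whose highest array was bone passage 3, whatever the gap, bone passage 6 was the nearest for 857 (34.1%). Against parental cells, bone passage 6 was within 1 log2 unit for 37 of the 50 genes, above by 1 or more for 10, among them Kank4, Sparcl1, Muc15, Wnk4 and Duoxa1, and below by 1 or more for 3 (Klrb1a, Matn2 and Egr2). For 39 of the 50 the gap exceeded the whole spread of the 4 other arrays.

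Bone passage 3 and passage 6 were compared directly as well, with no replicate check. At bone passage 3, 263 genes were at least 2-fold higher (2.09% of those tested) and 46 lower (0.365%). This split moved with the scale, from 85.1% higher to 65.1% (181 higher and 97 lower) with median centring and to 75.3% (220 and 72) with quantile normalization. Against parental cells 312 genes were higher (2.47%) and 248 lower (1.97%), against liver passage 1 406 (3.22%) and 328 (2.6%), and against liver passage 3 284 (2.25%) and 300 (2.38%). When bone passage 6 was left out of the range, the count of genes apart at bone passage 3 went from 50 to 102 higher and from 4 to 58 lower, as genes of both bone passages then entered. Rhox5, an X-linked homeobox gene, was such a gene, with 63.0 and 125.7 at bone passages 3 and 6 and 1662 to 3731 elsewhere (gap -0.84).

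The signals of the 54 genes were mostly modest. At bone passage 3 the 50 higher genes had signals from 26.0 to 1353 with a median of 155.4, with 18 under 100 and 6 at 1021 or more. For 16 of them all 4 other arrays were under 25.1, the median of all signals. Further probe sets were present for 25 of the 50, and for 8 of these at least 1 met the rule in the same direction. For 12 a further probe set was highest at bone passage 3 without meeting the rule, and for 5 none was. In the other direction, 14 genes met the rule by a lesser probe set alone. Bace2, a protease related to the amyloid-cleaving enzyme, had 139.1 at bone passage 3 and 27.3 to 64.5 elsewhere by its brightest probe set (gap 0.95) and met the rule by 2 others (1.83 and 1.08). Aldh2, a mitochondrial aldehyde dehydrogenase, was below all arrays by 2 lesser probe sets (-1.28 and -1.07), yet its brightest gave 1927 at bone passage 3 against 1347 to 1795.

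The rule's threshold ran through a continuous range of gaps. Just inside lay Matn2 (1.01), Catsperg1 (1.03) and Ighm (1.03), and Tbxa2r on the lower side (-1.01). Just outside were the claudin gene Cldn8, with 59.8 at bone passage 3 and 22.1 at bone passage 6 (gap 0.99), and Gjb1, a gap junction protein, with 38.7 and 11.5 (gap 0.99). On the lower side these were Dusp14, a phosphatase, with 117.3 at bone passage 3 and 248.2 to 339.8 elsewhere (gap -0.99), and the growth factor gene Pdgfb, with 280.1 against 570.5 to 758.0 (gap -0.99). Pdgfb was thus brighter than all 4 lower members. A smaller gap than 1.2 log2 units was found for 24 of the 50 higher genes.

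List medians at bone passage 3 ran from -1.99 (adipocyte markers, with Lpl alone tested) to 0.55 (osteoblast markers). Of the 58 lists, 7 held a member: hypoxia and glycolysis, immediate early, keratins, Notch, insulin-like growth factors, S100 and xenobiotic metabolism, each with 1. Over all genes tested 0.428% met the rule, and 0 or 1 member says little of a list of this size. DNA replication and mitosis genes had a median of -0.36, with 8 of 32 lowest and 0 highest of the 5 arrays at bone passage 3, against 16.1% and 19.9% of all genes tested. Top2a, the topoisomerase of dividing cells, had 2244 in parental cells, 1401 at bone passage 3, 2247 at bone passage 6, and 1403 and 2164 at liver passages 1 and 3. Rrm2, the ribonucleotide reductase subunit of S phase, had 2495, 1544, 2949, 992 and 2566 in that order. Bone passage 3 and liver passage 1 were thus the low arrays for both genes, and the cause was not tested.

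Of 25 tested interferon response genes 0 met the rule, and 4 were highest and 0 lowest at bone passage 3. Over all genes tested these shares were 0.428%, 19.9% and 16.1%. The interferon median was 0.49 at bone passage 3. This median rested on which arrays it was set against, being 0.08 without the parental array or without bone passage 6, and 0.81 without either liver array. Usp18, a brake on interferon signalling, had 125.2 in parental cells, 386.7 at bone passage 3, 32.3 at bone passage 6 and 289.9 and 405.3 at the liver passages. Rtp4, another interferon target, had 625.3, 1240, 128.5, 912.0 and 1267. In both genes bone passage 3 lay near the liver arrays, and bone passage 6 was the lowest. Basal mammary genes had a median of 0.35. At bone passage 3, 9 of 15 were highest and 1 lowest, against 19.9% and 16.1% of all genes tested. Those with the largest gaps were Id4, an inhibitor of helix-loop-helix factors (gap 0.62), and the integrin Itga6 with 2445 against 1266 to 1565 (gap 0.64). Id4 had 1978 and 1283 at bone passages 3 and 6 and 510 to 607 elsewhere. Of the 9 highest, bone passage 6 was the nearest array for Id4, Krt14 (1367 against 1319), Trp63 (43.3 against 36.4) and Egfr (192.8 against 164.2). Another array was nearest for Krt5, Krt17, Oxtr, Lgr5 and Itga6. The smooth muscle actin gene Acta2 was the lowest one, with 67.6 against 81.8 to 114.4, and the kinase gene Mylk (23.2 against 22.4 to 73.6) and the integrin Itgb4 (395.7 against 305.6 to 557.9) were below the median of the other arrays.

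**Figure D4:**
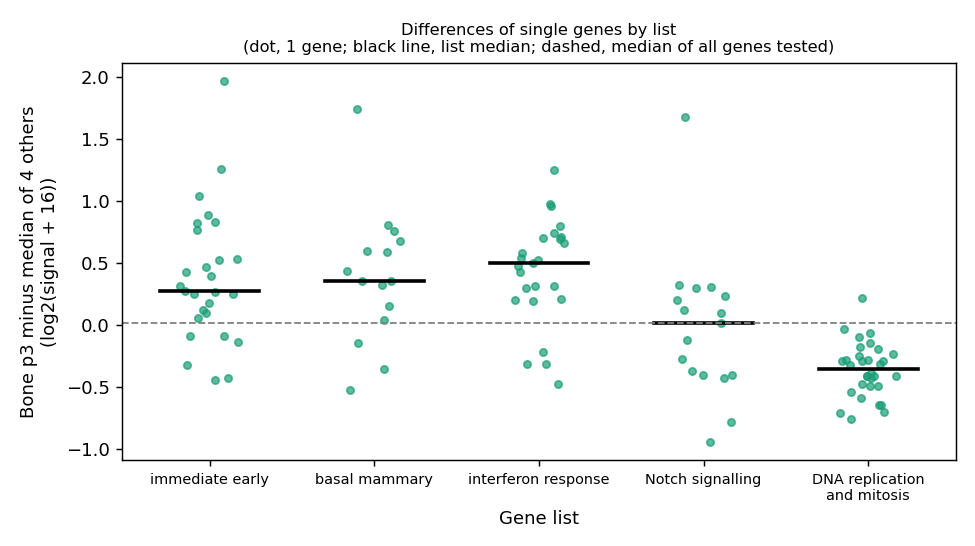
Each dot is 1 gene, placed at its log2(signal + 16) at bone passage 3 minus the median of the 4 other arrays (vertical axis); black lines are list medians and the dashed line is the median of all genes tested, 0.01. Immediate early (0.28), basal mammary (0.35) and interferon (0.49) medians lie above it, Notch genes (0.01) lie on it with Hey1 apart at 1.68, and DNA replication and mitosis genes (-0.36) lie below.

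Markers of other cells that bone or liver tissue could bring along were summed over the tested members of each list. Within the range of the other arrays lay macrophage markers (11 of 12 tested, 799 at bone passage 3 against 569 to 1222), fibroblast markers (3 of 8, 139 against 103 to 213), osteoblast markers (3 of 8, 519 against 181 to 539), osteoclast markers (3 of 7, 489 against 400 to 524) and endothelial markers (2 of 7, 174.5 against 106.5 to 261). Cd14, also on the inflammatory list, gave 450.2 of the macrophage sum at bone passage 3, 928.2 at bone passage 6 and 212.2 at liver passage 1. The macrophage median of log2(signal + 16) was 5.41 at bone passage 3 and 5.19 to 6.59 elsewhere, highest at liver passage 1. Granulocyte markers had a lower sum (5 of 7, 1511 against 2235 to 4458), most of it the signal of Ltf, the lactoferrin gene (1105 against 1856 to 4039), while their median was 0.14 and 1 of the 5 was highest and 1 lowest. The lipase gene Lpl, the 1 tested adipocyte marker of 6, had 5.3 against 13 to 253.5. The osteoblast markers nevertheless had the highest median of the 58 lists, 0.55, over 3 genes: Sp7 (58.4 at bone passage 3 against 34.3 to 56.5), Alpl (444.9 against 108.1 to 470.3) and Col1a1. That median was 0.01 with no filter on dim genes and 0.16 without either liver array. Haemoglobin Hba-a1, the 1 tested erythroid marker of 5, was slightly higher, with 33.1 at bone passage 3 and 16.1 to 26.2 elsewhere. Ptprc, tested of 7 T and B cell markers, had 12.9 against 6.1 to 25.7, and Tat, tested of 7 hepatocyte markers, had 18.4 against 5.7 to 25.2. Of defining markers, Col1a1 (fibroblasts and osteoblasts) had 15.4 at bone passage 3, Ibsp (osteoblasts) 14.5, C1qa (macrophages) 1.0, Cd3e (T cells) 11.7, Pecam1 (endothelium) 6.1 and Alb (hepatocytes) 2.4. Other markers on these lists were brighter, among them Cd14 and the fibroblast marker Col1a2. Col1a2 was highest at bone passage 3, with 52.2 against 34.4 to 46.7 elsewhere. The part of these markers in the results was not tested.

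Upstream sequences were searched for 8 short motifs, a search chosen with the members known. Promoter entries were found in RefSeq for 43 of the 54 genes, and a gene counted where any of its entries held the motif on either strand within 250 bases before the start. The E-box CACGTG, which MYC, MXD and clock proteins can bind, was held by 11 of 43 members (25.6%), against 9.73% of the 10154 tested genes with an entry and 6.86% of all 27025 genes with one. For the other motifs the shares of members and of tested genes were 46.5% and 62.1% for the GC box GGGCGG, 27.9% and 40.1% for CCAAT, 23.3% and 23.8% for the RBPJ core TGGGAA, 18.6% and 29.6% for TGACG, 9.30% and 8.39% for TATAAA, 0% and 5.82% for the AP-1 site TGANTCA, and 0% and 2.94% for TGACGTCA, which holds TGACG. The stretches around the E-boxes are shown for the 5 members with one that had the largest gaps and a gene symbol, and for the lower gene Pak3, with the E-box in capitals on build GRCm38.p6. A match is a description of these letters and does not show that a factor binds there.
Mgll, chr6:88724348-88724393, plus strand: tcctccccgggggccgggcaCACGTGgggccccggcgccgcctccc
Tnfrsf19, chr14:61038095-61038140, minus strand: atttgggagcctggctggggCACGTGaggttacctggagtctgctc
Krt23, chr11:99493264-99493309, minus strand: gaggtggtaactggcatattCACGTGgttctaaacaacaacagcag
Flvcr2, chr12:85746499-85746538, plus strand: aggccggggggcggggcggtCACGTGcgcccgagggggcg
Nr0b2, chr4:133553161-133553206, plus strand: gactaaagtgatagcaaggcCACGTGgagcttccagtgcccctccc
Pak3, chrX:143518485-143518530, plus strand: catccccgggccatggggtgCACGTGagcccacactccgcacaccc
The other E-box members were 4931406C07Rik, Irs2, Egr2, Car6 and Osbp2. In distance from the start, the E-boxes shown began 44 bases before it for Mgll, 133 for Tnfrsf19, 169 for Krt23, 20 for Flvcr2, 195 for Nr0b2 and 86 for Pak3.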

How the data were processed

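RNA of 5 samples was hybridised to 1 Affymetrix array each, from 5 ug of RNA per the labels' protocols. The file that the authors deposited holds linear intensities of 45101 probe sets. RMA is named in the submitters' processing notes, without a version. RMA gives log2 values and these are linear, with a 2% trimmed mean of 150 on each array. Other steps are not given in the sources used here.

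Signals were converted to log2(signal + 16), which understates the change of dim genes, with no further normalization, in Python 3.11.15 with pandas 2.3.3. The platform annotation gave 1 gene for 34945 probe sets, and 932 with several genes, 9160 with none and 64 controls were left out. For 34741 of them the identifier was found in RefSeq (GRCm38.p6), and 0 symbols changed. Probe sets whose highest signal was under 25.1, the median of all values, were left out, and each gene was read from its brightest probe set by mean signal, giving 12609 of 18193 genes. All 54 members also met the rule with no filter, which could change a call only by changing the probe set. For 16 of the 50 higher genes only bone passage 3 reached 25.1, so the array where they are high let them pass. The call was tested on simulated data. With 1 array per group the number of arrays limits all precision, and no p-values were computed.

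The rule, the members and the 58 gene lists were chosen with earlier results of these data known, and 6 further lists after the members were seen. The naming rule took the 20 largest gaps per direction among genes with a symbol, up to 5 members per list, and 8 label-check genes. It named 27 of the 54 members. The other 27 (23 with a symbol and 4 with clone names), the genes of the 6 added lists, and list genes named as examples were chosen after their values were seen. Alternatives tried were other pseudocounts, filters, normalizations, probe set rules and thresholds, and leaving out each other array.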

Additional observations from a re-analysis of the deposited data

How the results depend on the processing

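All 54 genes kept their direction under every alternative that gave a value. Other pseudocounts and leaving out an array could not reverse it, and other filters could only by changing the probe set. Centring, quantiles and the probe set rules were the settings that could have. Of the 54 genes 17 met the rule under all 5 of both other pseudocounts, median centring, quantile normalization and averaged probe sets: Them5, Cnmd, Mgll, Gm13889, Hp, Ly6d, Apod, Muc15, Wnk4, Tnfrsf19, Duoxa1, Mxd1, Krt23, Aldoc, St8sia6, Hey1 and Egr2. Of these settings a pseudocount of 1 could only widen a gap, so it could remove no member. A filter on the mean signal left 41 members with a value, and no tested gene for the T and B cell, erythroid and hepatocyte marker lists. Centring lost 13 members, among them Kank4, Sparcl1, Irs2, Rgs2, Ckmt1, Hgf and Trpm3, quantiles 5 and averaging 8, among them Matn2, Pak3 and Ntng1. The 50 higher genes became 77 with a pseudocount of 1, 19 with 64 and 12 at a 3-fold gap, and the 4 lower genes 57, 0 and 0. The lower count was also 10 with centring, 2 with averaged probe sets and 9 with every probe set as a unit. Leaving out one array gave 57 to 102 higher and 6 to 58 lower genes, both highest without bone passage 6. The probe set with the highest mean log2 value, an alternative chosen after seeing the data, gave 49 and 3.

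For the other arrays a pseudocount of 1 gave 85 higher and 109 lower genes in parental cells, 21 and 194 at bone passage 6, 57 and 121 at liver passage 1, and 48 and 39 at liver passage 3. A pseudocount of 64 gave 17 and 15, 3 and 9, 16 and 15, and 5 and 1. Genes 2-fold higher and lower at bone passage 3 with a pseudocount of 1 were 547 and 501 against parental cells, 651 and 173 against bone passage 6, 732 and 549 against liver passage 1, and 491 and 567 against liver passage 3. With 64 they were 122 and 79, 72 and 9, 172 and 120, and 121 and 102. Against bone passage 6 the lower count was 97 with centring and 72 with quantiles. Of 140 counts under alternatives 94 stayed within 1.5 times the reported count. The cause of these shifts was not tested. No paired analysis was possible because each group holds 1 array and no result comes from a test.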
